A study of Mus musculus with 6 samples.

Results

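The miR-130 and miR-301 family was followed in small RNA from extracellular vesicles of mouse muscle. Its members were taken by identifier and position: the 3p strands miR-130a-3p, miR-130b-3p and miR-301a-3p, plus the strand on the opposite arm of each of the 3 hairpins, found on the same chromosome and strand within 80 bases. This gave 6 loci of 2110 in the count table. The vesicles, called exosomes in the labels, came from old and from young mouse muscle, with 3 libraries in each group and no treatment or transgene named. The labels give no age in months, strain, sex or named muscle. They also do not say that the libraries of a group came from separate animals, and the p-values below then measure library to library spread alone, which could be technical.

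A miRNA hairpin is cut into a 5p and a 3p strand, of which usually one is loaded into an Argonaute protein while the other decays. The loaded strand pairs with target mRNAs mainly through its seed, so miRNAs with the same seed can repress overlapping sets of targets. The miR-130 and miR-301 miRNAs share one seed and are known for repressing the adipocyte regulator Pparg and for roles in blood vessel cells, in studies of human and mouse cells.

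The mature 3p strands are shown because the shared seed defines the family. Sequences are from RefSeq (GRCm38.p6, the assembly also called mm10), 5′ to 3′, with the seed (bases 2 to 8) in capitals.
miR-130a-3p: cAGUGCAAuguuaaaagggcau
miR-130b-3p: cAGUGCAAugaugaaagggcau
miR-301a-3p: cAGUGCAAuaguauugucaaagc

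All 3 carried the seed AGUGCAA. Counted from base 1 at the 5′ end, miR-130a-3p and miR-130b-3p differed at 2 of 22 positions (U11A and A13G, with the base of miR-130a-3p first), while miR-130a-3p and miR-301a-3p differed at 10 of 22, the first at base 10. The number of mismatches allowed in alignment is not given in the sources used here, so the split of reads between miR-130a-3p and miR-130b-3p is uncertain.

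The opposite arms are shown because 1 of them was counted more often than its 3p partner.
miR-130a-5p: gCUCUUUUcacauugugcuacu
miR-130b-5p: aCUCUUUCccuguugcacuacu
miR-301a-5p: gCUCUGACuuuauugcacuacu

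Their seeds differed from each other, and none was the seed of the 3p strands. The hairpins that hold these pairs follow, with the strands of both arms in capitals and the remaining bases in lower case.
Mir130a: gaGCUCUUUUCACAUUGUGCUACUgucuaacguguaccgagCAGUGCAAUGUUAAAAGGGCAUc
Mir130b: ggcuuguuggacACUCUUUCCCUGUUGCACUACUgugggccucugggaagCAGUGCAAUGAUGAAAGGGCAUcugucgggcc
Mir301: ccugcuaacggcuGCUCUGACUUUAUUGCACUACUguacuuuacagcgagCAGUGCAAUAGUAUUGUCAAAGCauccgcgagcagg

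The 3 hairpins lie on different chromosomes of mm10. miR-130a-3p (MIMAT0000141) is at chr2:84741116-84741137 on the minus strand, between genes, 1032 bases from Gm19426 and 2461 bases from Ypel4 in GENCODE release M21. miR-301a-3p (MIMAT0000379) is at chr11:87113054-87113076 on the plus strand, in an intron of Ska2, which encodes a kinetochore protein. miR-130b-3p (MIMAT0000387) is at chr16:17124071-17124092 on the minus strand, in an intron of 2610318N02Rik, and its hairpin neighbours that of miR-301b in the same gene. None of the 6 member loci overlapped another locus of the table.

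Libraries held 904892 to 1417733 counts in old and 1459826 to 1706396 in young, and old replicate 1 was the smallest. It also stood apart in composition: miR-21a-5p, the most abundant miRNA, took 35.42% there and 48.98% to 52.89% elsewhere, and the 9 loci of 7 muscle miRNAs took 9.91% there and 4.61% to 6.26% elsewhere. In CPM (counts scaled to a common library size), the muscle miRNA miR-206-3p averaged 56330 CPM in old and 49960 CPM in young, so a marker of the labelled tissue was abundant, although 2 of the 9 muscle loci, a miR-1a-3p copy and miR-486-5p, were listed at 0. Of the markers of other cells, miR-451a of red blood cells averaged 43790 CPM in old and 41980 CPM in young and miR-143-3p of smooth muscle 24360 CPM in old and 14950 CPM in young, while both endothelial strands of miR-126a were listed at 0. From the liver list, miR-192-5p averaged 183 CPM in old and 172 CPM in young, while miR-122-5p was listed at 0. From the neural list, miR-128-3p averaged 121 CPM in old and 93.7 CPM in young, while miR-9-5p was listed at 0. The epithelial miR-200a-3p averaged 8.34 CPM in old and 4.67 CPM in young. Reads over overlapping loci stay unassigned, and 104 of 106 overlapping loci held 0 counts. A marker listed at 0 may therefore be uncounted rather than absent. In bulk vesicle RNA, fewer vesicles from a cell type and less of a miRNA per vesicle cannot be told apart.

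All CPM values are scaled by TMM (trimmed mean of M-values) and so are relative to the other counted miRNAs. Within each of the 6 libraries the more abundant strands kept the order miR-130a-3p, then miR-301a-3p, then both strands of the miR-130b hairpin. The 5p strands of the other hairpins fell below these, except in old replicate 1. There miR-130a-5p (8.07 CPM) lay above miR-130b-3p (5.04 CPM), and miR-301a-5p was level with miR-130b-3p. By mean level miR-130a-3p was locus 97 from the top in old and 97 in young. miR-301a-3p stood at 120 in old and 105 in young, miR-130b-5p at 274 in old and 237 in young, and miR-130b-3p at 305 in old and 290 in young. All 6 loci are 22 or 23 bases long, so dividing by length does not alter this order.

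miR-130a-3p, the most abundant member, had about the same mean level in old and young vesicles. It had 297.5, 439.7 and 425 CPM in old replicates 1, 2 and 3, from 295, 614 and 547 counts, against 376, 372 and 418 CPM in young replicates 1, 2 and 3, from 546, 619 and 652 counts. The groups overlapped in an uneven way: 2 old libraries lay above all young libraries and old replicate 1 lay below them all. The mean was 387 ± 78.1 CPM in old and 389 ± 25.4 CPM in young (SD, n = 3 each). Between them the log2 fold change was -0.0044 ± 0.19 (SE, adjusted p = 0.987, edgeR's quasi-likelihood test), with a 95% interval of -0.40 to 0.40, which spans folds of 0.755 to 1.32. Without old replicate 1 the log2 fold change was 0.17 (adjusted p = 0.529).

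miR-301a-3p was lower in every old library than in any young one. It had 171, 229 and 194 CPM in old replicates 1, 2 and 3, from 170, 320 and 250 counts, against 292, 278 and 349 CPM in young replicates 1, 2 and 3, from 423, 462 and 544 counts. The highest old library, replicate 2, stayed below the lowest young library, also replicate 2. The means were 198 ± 29.1 CPM in old and 306 ± 37.7 CPM in young (SD, n = 3 each). The fitted log2 fold change was -0.62 ± 0.19 (SE, 95% interval -1.03 to -0.21), or 0.649 of the young level. It did not pass the threshold of 0.05 after Benjamini-Hochberg adjustment over the 347 tested loci (adjusted p = 0.0714, edgeR). DESeq2's Wald test on the same counts gave -0.62 with an adjusted p of 0.0337, past the threshold. In edgeR, 24 loci had a smaller p and 25 had a lower log2 fold change.

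**Figure D1:**
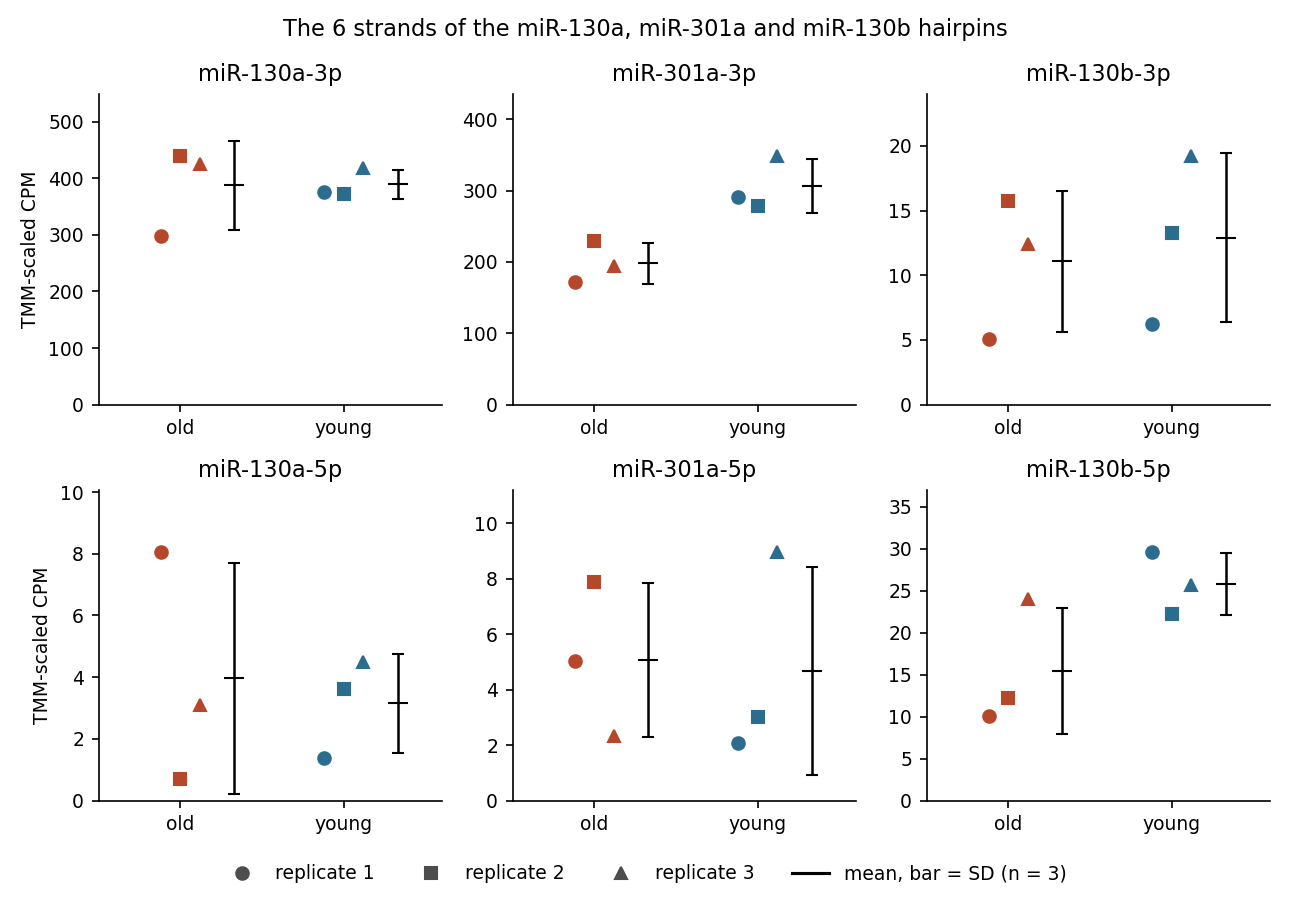
Each panel plots 1 strand, with TMM-scaled CPM on the y axis from 0 and the 3 old libraries left of the 3 young ones; symbols mark the replicate number and black bars the mean ± SD. miR-301a-3p is the only strand with separate groups, at 171 to 229 CPM in old and 278 to 349 CPM in young.

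Leaving out any single library kept the sign of miR-301a-3p, with log2 fold changes from -0.74 to -0.51. The value nearest 0 came without old replicate 1, the library with its lowest level (adjusted p = 0.0545 by edgeR). Among the marker lists, the 5 leukocyte loci together held 0.0882% to 0.108% of counts in old and 0.112% to 0.138% in young. Of these loci only miR-155-5p was lower in old, with 407 CPM in old and 713 CPM in young (log2 fold change -0.81, adjusted p = 0.0135, edgeR). miR-223-3p averaged 275 CPM in old and 255 CPM in young, miR-150-5p 244 CPM in old and 228 CPM in young and miR-142a-5p 36.8 CPM in old and 21.4 CPM in young, none past the threshold, and miR-142a-3p was listed at 0. The 5 loci of smooth muscle and fibroblasts held 3.59% to 4.36% of counts in old and 2.81% to 3.11% in young, with miR-143-3p higher in old (log2 fold change 0.70, adjusted p = 0.0137, edgeR), while miR-214-3p averaged 758 CPM in old and 1003 CPM in young. The 9 skeletal muscle loci held 4.61% to 9.91% of counts in old, with the highest value in old replicate 1, and 4.95% to 6.26% in young. Of these loci, edgeR called miR-133a-3p higher in old at both copies (log2 fold changes 1.11 and 1.12, adjusted p = 0.0009 each). Both copies have the same mature identifier and count as 1 measurement. edgeR also called miR-499-5p (0.998, adjusted p = 0.0009) and a miR-1a-3p copy (0.71, adjusted p = 0.0285) higher. miR-133b-3p (0.39, adjusted p = 0.187) and miR-206-3p (0.17, adjusted p = 0.731) did not pass. The part of these cell types in the miR-301a-3p difference was not tested.

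The miR-130b hairpin was counted at low levels. miR-130b-3p had 5.04, 15.7 and 12.4 CPM in old replicates 1, 2 and 3, from 5, 22 and 16 counts, against 6.21, 13.2 and 19.2 CPM in young replicates 1, 2 and 3, from 9, 22 and 30 counts. The groups overlapped almost fully, and replicate 1 was the lowest in both. The log2 fold change was -0.18 ± 0.50 (SE, adjusted p = 0.858, edgeR), with a 95% interval of -1.25 to 0.88, so that neither a fold of 0.42 nor one of 1.84 lay outside it. A change of the 0.649-fold size seen for miR-301a-3p was therefore not resolvable for miR-130b-3p at this depth.

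Its opposite arm, miR-130b-5p, had 10.1, 12.2 and 24.1 CPM in old replicates 1, 2 and 3, from 10, 17 and 31 counts, against 29.6, 22.3 and 25.7 CPM in young replicates 1, 2 and 3, from 43, 37 and 40 counts. Old replicates 1 and 2 lay below all young libraries, while old replicate 3 fell inside the young range. The means were 15.4 ± 7.54 CPM in old and 25.9 ± 3.70 CPM in young (SD, n = 3 each). At -0.72 ± 0.38 on the log2 scale (SE; 95% interval -1.52 to 0.07) it did not pass (edgeR, adjusted p = 0.272). Without old replicate 3, the log2 fold change was -1.20 (adjusted p = 0.0766).

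The remaining strands, miR-130a-5p and miR-301a-5p, failed the filter on low counts and were not tested. miR-130a-5p had 8, 1 and 4 counts in old replicates 1, 2 and 3 and 2, 6 and 7 in young replicates 1, 2 and 3. miR-301a-5p had 5, 11 and 3 counts in old and 3, 5 and 14 in young, in the same replicate order. Old and young overlapped for both strands, at 0.716 to 8.07 CPM and 1.38 to 4.49 CPM for miR-130a-5p and at 2.33 to 7.88 CPM and 2.07 to 8.98 CPM for miR-301a-5p. Fitted without the filter, their log2 fold changes were 0.18 ± 0.83 for miR-130a-5p and 0.11 ± 0.71 for miR-301a-5p (SE, adjusted p = 0.954 and 0.956, edgeR).

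Of the 6 member loci, 4 passed the filter. None of the 4 was called by edgeR at an adjusted p under 0.05, where 4.32% of the 347 tested loci were called (12, or 3.46%, higher and 3, or 0.865%, lower in old). At an unadjusted p under 0.05 edgeR gave 1 of 4, miR-301a-3p, beside 22.5% of all tested loci, and DESeq2 called that same 1 after adjustment, beside 6.63% of all tested loci (2.59% lower in old). Old lay entirely below young at 1 of the 4, beside 13.0% of all tested loci. The 4 log2 fold changes ran from -0.72 to -0.0044 with a median of -0.40, against a median of 0.04 over all tested loci, of which 165 were below 0. With 4 loci from 3 hairpins, these counts only describe the members.

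Over all libraries, the more frequent strand differed between hairpins. In the Mir130a and Mir301 hairpins the 3p strand held nearly all counts, with 3273 of 3p against 28 of 5p for Mir130a (99.1% 3p over all libraries) and 2169 against 41 for Mir301 (98.1%). In the Mir130b hairpin the 5p strand was the more frequent one, with 178 counts against 104 for 3p (36.9% 3p), and the 3p strand led in 1 library only, old replicate 2. This ordering did not depend on a scaling of libraries, since both arms were counted in the same library. The 95% exact binomial interval of Mir130b's 3p share included equal arms in old replicates 1 and 2 and young replicates 2 and 3. In old replicate 3 and young replicate 1 the interval lay below equal arms. The 3p count of Mir130b also carries the uncertain split of reads between miR-130a-3p and miR-130b-3p.

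Between old and young the 3p share of a hairpin was compared by exact two-sided permutation tests, whose smallest possible p with 3 libraries a group is 0.1. Mir130a had a 3p share of 98.8% ± 1.30 in old and 99.2% ± 0.377 in young (exact p = 0.9, adjusted over 3 hairpins 0.9). The 3p share of Mir301 was 97.5% ± 1.12 in old and 98.6% ± 0.954 in young (SD, n = 3 each; exact p = 0.2, adjusted p = 0.6). For Mir130b it was 33.3%, 56.4% and 34.0% in old replicates 1, 2 and 3, against 17.3%, 37.3% and 42.9% in young replicates 1, 2 and 3. These values rest on 15 to 70 counts for both arms, and the 95% exact binomial interval of old replicate 1 ran from 11.8% to 61.6% and that of young replicate 1 from 8.23% to 30.3%. Mean shares of Mir130b were 41.3% ± 13.1 in old and 32.5% ± 13.4 in young (SD, n = 3 each; exact p = 0.6, adjusted p = 0.9). Intervals of this kind cover counting error only.

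**Figure D2:**
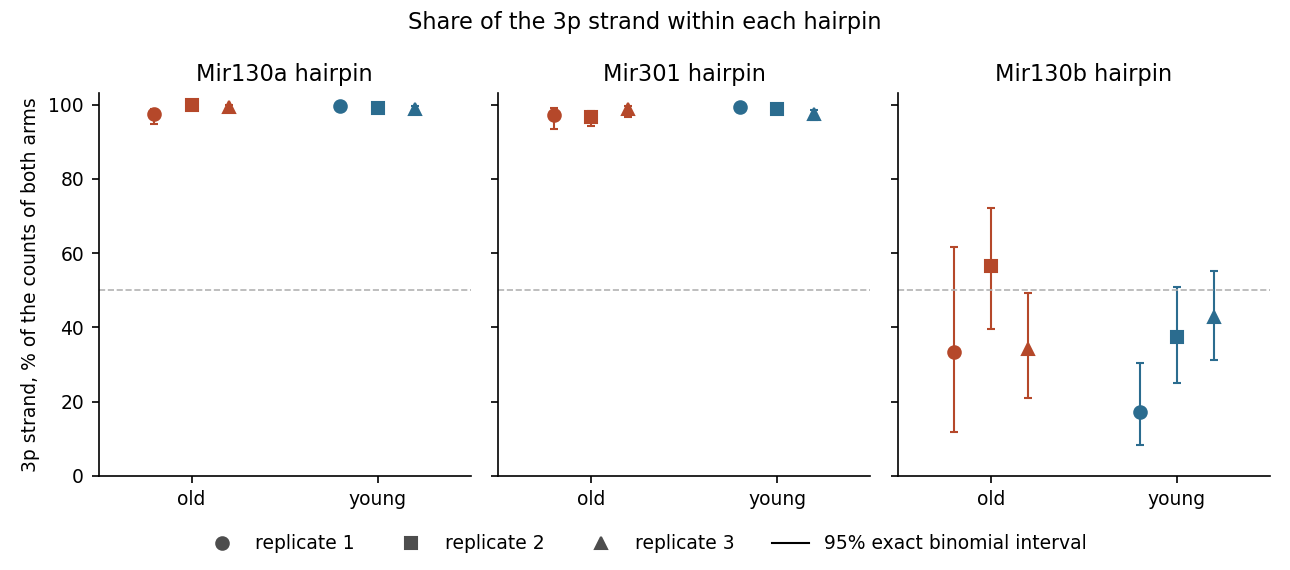
The y axis gives the counts of the 3p strand as a percent of both arms, for each library of the 3 hairpins, old left of young; bars are 95% exact binomial intervals and the dashed line marks equal arms. Mir130a and Mir301 sit near the top in every library, while Mir130b spreads from 17.3% to 56.4% with wide intervals.

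Whether the 3p strands differed from each other in their old against young difference was asked with the log2 ratio of their counts (plus 0.5) within a library, for all 3 pairs. miR-301a-3p stood at 57.6%, 52.1% and 45.7% of the miR-130a-3p count in old replicates 1, 2 and 3, against 77.5%, 74.6% and 83.4% in young replicates 1, 2 and 3. All 3 old ratios lay below all 3 young ratios. The mean log2 ratio was -0.95 ± 0.17 in old and -0.35 ± 0.082 in young, a difference of -0.60 (SD, n = 3 each; exact permutation p = 0.1, the smallest possible, adjusted over 3 pairs 0.3). Leaving out any 1 library gave differences from -0.68 to -0.52.

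miR-130b-3p stood at 1.695% to 3.583% of the miR-130a-3p count in old and 1.648% to 4.601% in young. Its log2 ratio to miR-130a-3p differed by -0.17 (exact permutation p = 0.8, adjusted p = 0.8). Against miR-301a-3p it stood at 2.94% to 6.87% in old and 2.13% to 5.51% in young, and the log2 ratio differed by 0.43 (exact permutation p = 0.5, adjusted p = 0.75). Both of these ratios overlapped between the groups, and neither p shows that the strands behaved alike.

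**Figure D3:**
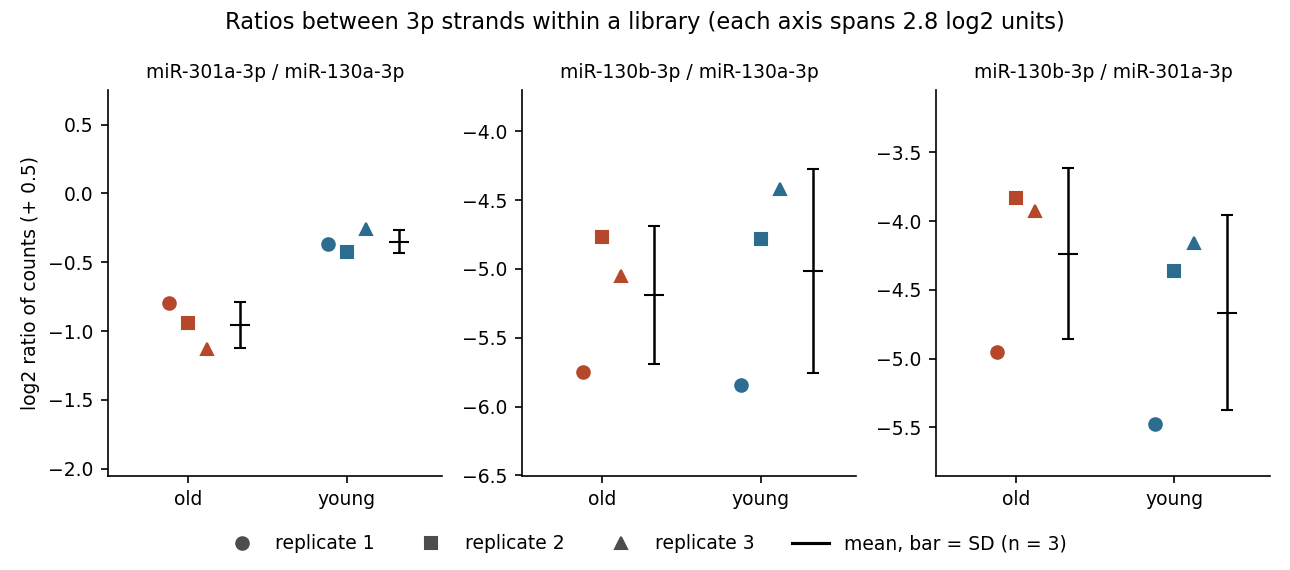
Each panel plots the log2 ratio of 2 strands (counts plus 0.5) per library, old left of young, with symbols for the replicate number and black bars for the mean ± SD; each y axis spans the same range. The ratio of miR-301a-3p to miR-130a-3p separates the groups, at -1.13 to -0.79 in old and -0.42 to -0.26 in young, and the ratios of miR-130b-3p overlap.

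Summed, the 3 listed 3p strands with the seed AGUGCAA made up a small part of the counted miRNAs. The sum was 470, 956 and 813 counts in old replicates 1, 2 and 3, or 0.0519%, 0.0674% and 0.0587% of all counts, against 978, 1103 and 1226 counts in young replicates 1, 2 and 3, or 0.067%, 0.0646% and 0.0805%. Old replicate 2 lay inside the young range and the other old libraries lay below it. With miR-21a-5p left out of the denominator the groups no longer overlapped, at 0.0804%, 0.132% and 0.125% in old replicates 1, 2 and 3 and 0.139%, 0.134% and 0.160% in young replicates 1, 2 and 3. That gap was narrow, from 0.1322% in old replicate 2 to 0.1345% in young replicate 2, and its counting error was not computed. The mean share was 0.0594% ± 0.00776 in old and 0.0707% ± 0.00855 in young (SD, n = 3 each). A sum over chosen members was not tested.

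Within this sum the makeup differed between the groups. miR-130a-3p supplied 62.8%, 64.2% and 67.3% of it in old replicates 1, 2 and 3, against 55.8%, 56.1% and 53.2% in young replicates 1, 2 and 3. The share of miR-301a-3p was 36.2%, 33.5% and 30.7% in old and 43.2%, 41.9% and 44.4% in young, in the same replicate order. Neither strand's share overlapped between the groups, as their ratio had not. These shares largely restate that ratio (exact permutation p = 0.1, adjusted p = 0.3) and were not tested. miR-130b-3p supplied 1.78% ± 0.640 in old and 1.79% ± 0.784 in young (SD, n = 3 each).

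Among the other loci with a mature sequence in RefSeq, 4 carry AGUGCAA at bases 2 to 8, and their sequences are shown because they share the seed and part from the members after it.
miR-130c: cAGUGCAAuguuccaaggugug
miR-721: cAGUGCAAuuaaaagggggaa
miR-6341: cAGUGCAAugauauugucacuau
miR-6389: cAGUGCAAuguuaaacuuugc

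All 4 had 0 counts in every library, where 0 counts allow up to 3 counts, or 2.15 to 3.02 CPM in the old and 1.80 to 2.07 CPM in the young libraries. They lie on chromosomes 9, 5, 1 and 7, in the order shown. The clustered neighbour miR-301b-3p (chr16:17124420-17124442, minus strand) had no mature sequence in the RefSeq set used, so its seed was not searched. Whether it carries AGUGCAA is therefore not shown here, and the sum of 3p strands left it out. miR-301b-3p had 2, 5 and 6 counts in old replicates 1, 2 and 3 and 6, 6 and 1 in young, in the same order. It failed the filter. Its opposite arm miR-301b-5p had 1 count in all, in young replicate 3. The chromosome 16 cluster thus gave 282 counts from the miR-130b hairpin and 27 from the miR-301b hairpin.

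Near seeds were defined as seeds that share at least 6 letters in a row with AGUGCAA. They belong to the miR-19 miRNAs of the miR-17-92 cluster and its paralog, to the miR-148 and miR-152 miRNAs, known to repress the DNA methyltransferase Dnmt1, and to miR-350-5p and miR-291b-3p. Sequences of 1 miRNA of each of the first groups are shown for comparison with the seed of the family.
miR-19b-3p: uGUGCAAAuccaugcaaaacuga
miR-152-3p: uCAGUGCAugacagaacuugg

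Of these 8 near-seed loci, 5 passed the filter and none was called by edgeR or DESeq2 after adjustment, beside 4.32% of all tested loci by edgeR. At an unadjusted p under 0.05 edgeR gave 3, beside 22.5% of all tested loci, and 2 of the 3 were copies of miR-19b-3p. miR-19b-3p had 68.6 to 97.4 CPM in old and 116 to 139 CPM in young at Mir19b-1, and 92.4 to 105 CPM in old and 124 to 146 CPM in young at Mir19b-2. These copies have the same mature sequence and count as 1 measurement, with log2 fold changes of -0.58 ± 0.22 and -0.46 ± 0.21 (SE, adjusted p = 0.139 and 0.190, edgeR). miR-152-3p had 90.8 to 127 CPM in old and 45.5 to 87.8 CPM in young, or 0.59 ± 0.26 on the log2 scale (SE; edgeR, adjusted p = 0.187). miR-148a-3p and miR-148b-3p had log2 fold changes of 0.76 and 0.25. The list had a median of 0.25, and it ran from the negative values of miR-19b-3p to the positive ones of all 3 tested miR-148 and miR-152 loci, with the tested members between -0.72 and -0.0044.

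**Figure D4:**
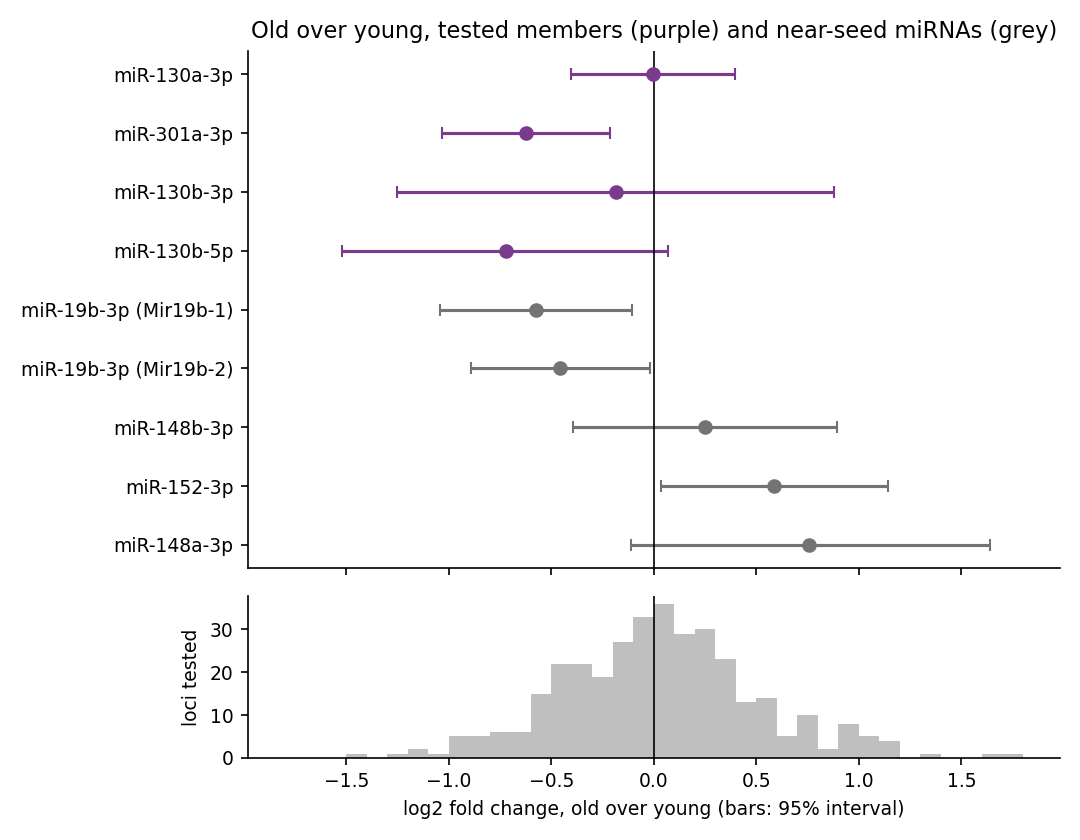
The upper panel gives the log2 fold change, old over young, with its 95% interval for the 4 tested members (purple) and the 5 tested near-seed loci (grey); the lower panel counts all 347 tested loci by their log2 fold change. The interval of miR-301a-3p, -1.03 to -0.21, lies below 0 before adjustment, and those of the other 3 members include 0.

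The loci whose pattern over the 6 libraries lay nearest to each tested member were found by the root mean square difference of log2 CPM after centring each locus on its own mean, over 343 other tested loci. For miR-130a-3p these were miR-25-3p, miR-186-5p and miR-18a-5p, with differences of 0.0557, 0.116 and 0.12 log2 units, where the median over loci was 0.383. miR-25-3p, from the miR-106b-25 cluster, had 571.7, 862 and 871 CPM in old replicates 1, 2 and 3 and 809, 784 and 842 CPM in young replicates 1, 2 and 3. It thus had its lowest value in the same library as miR-130a-3p, old replicate 1.

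For miR-301a-3p the nearest were miR-362-5p, miR-19b-3p at Mir19b-1 and miR-501-5p, with differences of 0.0914, 0.133 and 0.152 log2 units against a median of 0.476. miR-362-5p had 73.6, 96.7 and 93.9 CPM in old replicates 1, 2 and 3 and 141, 140 and 162 CPM in young replicates 1, 2 and 3, with a log2 fold change of -0.74 (adjusted p = 0.0545, edgeR), also short of the threshold. The nearest to miR-130b-5p were miR-467a-5p at Mir467a-3, miR-450b-5p and miR-503-3p (0.174 to 0.211 log2 units). Those to miR-130b-3p were miR-615-5p, miR-188-5p and miR-700-5p (0.183 to 0.374). With 6 libraries these are descriptions of likeness and were not tested.

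**Figure D5:**
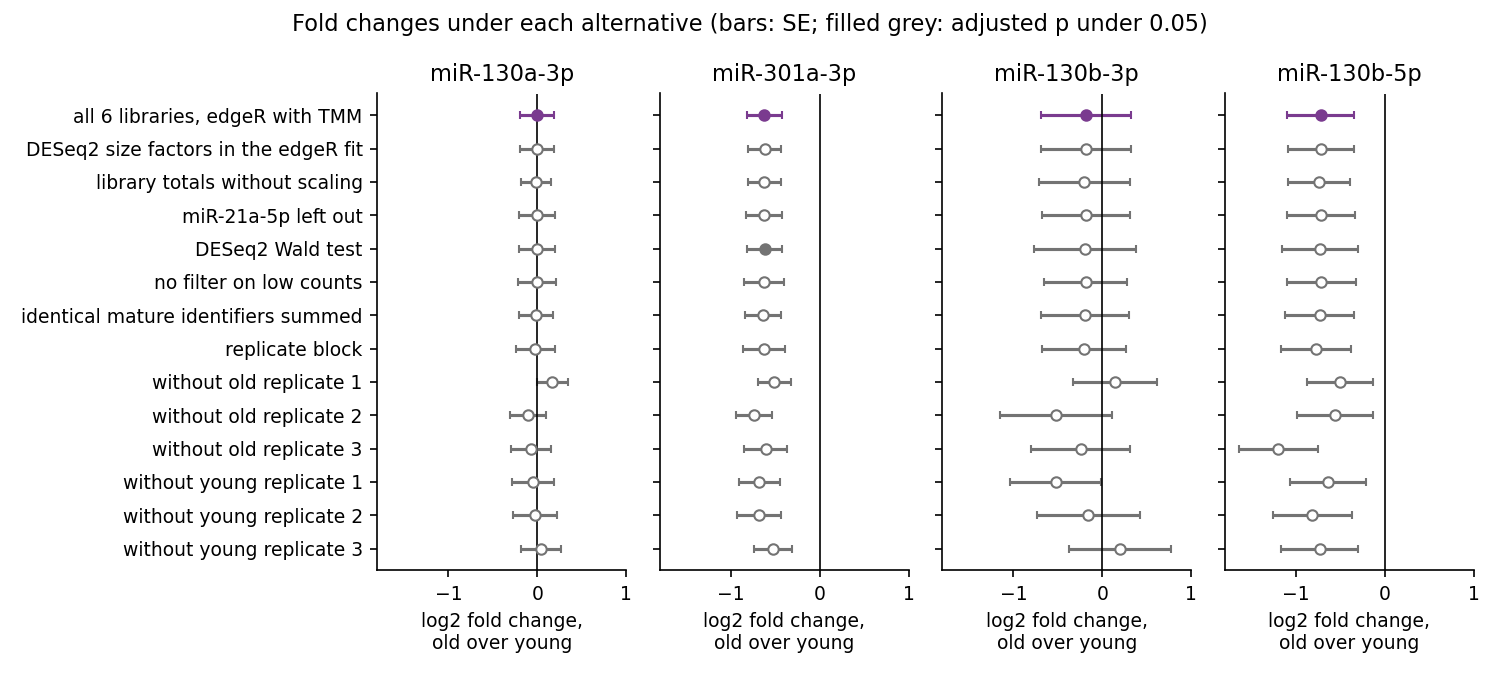
Log2 fold changes of the 4 tested members, old over young, under the main settings (purple, top) and 13 alternatives (grey), with SE bars; filled grey points have an adjusted p under 0.05. miR-301a-3p stays between -0.74 and -0.51 and is filled under DESeq2's Wald test only, and miR-130a-3p stays between -0.10 and 0.17.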

How the data were processed

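Small RNA of muscle vesicles was sequenced in 3 old and 3 young libraries, grouped by their titles. The authors aligned reads with BWA to mm10, per the submitters' processing notes, and the deposited table holds raw counts per mature miRNA locus from featureCounts 2.0.6, per the file headers, with no option for strand, overlapping features or multi-mapping reads. The sources used here do not give the aligner's version or settings. A read over overlapping features stays unassigned by that command: 104 of 106 overlapping loci held 0 counts, and none of these is a member.

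Loci were named by exact position from RefSeq mature miRNAs (1734 of 2110 loci, 92.2% of counts, all 6 members) and otherwise from GENCODE M21 miRNA genes. Old was compared with young by edgeR 4.0.16 (R 4.3.3): filterByExpr with defaults (minimum count 10, minimum total 15), which left 347 loci with 99.92% of counts, TMM scaling, and a two-sided quasi-likelihood test with Benjamini-Hochberg adjustment over all 347. SEs and 95% intervals of log2 fold changes were derived from each locus's unshrunken coefficient and F statistic. Single values per library were compared by exact permutation tests (scipy 1.17.1). No 2 libraries of a group agreed within sampling noise (chi-square per degree of freedom 16.87 to 334.0). The edgeR step was tested on simulated data. DESeq2 1.42.0, other scalings and filters, and leaving out each library were alternatives.

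The members, lists and tests were chosen with earlier results of these data known. Named are all members and their opposite arms, loci with the same seed, loci within 10 kb, and the 3 nearest patterns of each tested member. Near-seed miRNAs named are the 2 most abundant and any past the threshold. miR-152-3p, miR-148a-3p and miR-148b-3p beyond these were chosen after their values were seen. Of each marker list the most abundant locus is named. The other muscle, leukocyte, liver and neural miRNAs and miR-214-3p were added after their values were seen.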

Additional observations from a re-analysis of the deposited data

How the results depend on the processing

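The log2 fold changes of miR-301a-3p and miR-130b-5p kept their sign under all 13 alternatives. For miR-301a-3p the side of the threshold changed once, under DESeq2's Wald test (-0.62, adjusted p = 0.0337), and its adjusted p otherwise ran from 0.0545 to 0.268. Leaving out 1 library at a time gave -0.74 to -0.51 for miR-301a-3p, -1.20 to -0.50 for miR-130b-5p, -0.10 to 0.17 for miR-130a-3p and -0.53 to 0.20 for miR-130b-3p. Both of the last ranges change sign without old replicate 1 (0.17 and 0.14) and without young replicate 3 (0.043 and 0.20). The old minus young 3p share of Mir130a was -0.381 percentage points (-0.887 to 0.351, the highest without old replicate 1), that of Mir301 -1.03 (-1.66 to -0.594) and that of Mir130b 8.78 (1.19 to 14.0). The log2 ratio of miR-130b-3p to miR-130a-3p ranged from -0.589 to 0.124 and was positive without old replicate 1 (0.104) or young replicate 3 (0.124), and its ratio to miR-301a-3p ranged from 0.0228 to 0.788. The summed 3p share differed by -0.0113 percentage points (-0.0154 to -0.00645), and by -0.0317 with miR-21a-5p out of the denominator. In that setting the groups no longer overlapped, by a narrow gap (0.0804% to 0.132% in old, 0.134% to 0.160% in young).

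Over all loci, 12 were called higher and 3 lower in old. DESeq2's Wald test called 9 lower, the table without miR-21a-5p 8 lower, no filter 5 lower and summed mature identifiers 5 lower. Leaving out 1 library gave 5 to 25 higher and 0 to 20 lower, with 25 and 20 without old replicate 1; the causes were not tested. With replicate number as a block (replicate block), 5 were called higher and 1 lower, and the log2 fold change of miR-301a-3p was -0.63 (adjusted p = 0.202). Libraries with the same number did not deviate together (correlations of -0.134, 0.024 and -0.146), which gives no sign of pairing. With 3 libraries a group, these correlations cannot exclude it. Depth limits the miR-130b strands and both untested 5p strands, at 28 to 178 counts each over the 6 libraries.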
